A study of Mus musculus with 48 samples.

Results

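The 10 genes described here make up the MHC class II pathway: H2-Aa, H2-Ab1 and H2-Eb1, Cd74, H2-DMa, H2-DMb1 and H2-DMb2, H2-Oa and H2-Ob, and Ciita. They were taken by symbol, 10 of the 53345 gene rows in the deposited expression matrices. The list was drawn up by pathway membership, with earlier results of these data known. The blocking antibody given to these mice binds the surface product of the classical chains. RNA-seq was done on splenic regulatory T cells (Tregs) of 32 female C57BL/6 mice aged 8 to 12 weeks, and on conventional T cells (Tcons) of 16 of the same mice. Every mouse received 500 µg of antibody on day -1 and again on day 0, either the MHC II block (clone M5/114) or the isotype control (clone LTF-2), so no group went without antibody. On day 0 each mouse was given PBS or 25 µg of a human IL-2 Fc fusion: WT IL-2, or the attenuated muteins H16R and 3x, which carry amino acid substitutions. Spleens were taken on day 4. The 4 treatments with each of the 2 antibodies gave 8 groups, with 4 mice each for Tregs and 2 mice each for Tcons. Tregs were the CD25-positive cells held on magnetic beads from enriched CD4 T cells, and Tcons were the cells that flowed through. The label number 3 stands on 2 isotype WT IL-2 Treg libraries, called 3a and 3b here. They were taken as 2 mice because each sample was prepared from its own animal, but the labels do not tell them apart, so the n of 4 for that group rests on this assumption.

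MHC class II molecules present peptides from the endosomal pathway to CD4 T cells. An alpha and a beta chain assemble in the endoplasmic reticulum around the invariant chain, encoded by Cd74, which fills the groove and directs the complex to endosomes. There H2-DM removes the invariant chain fragment and exchanges peptides, and H2-DO, made of H2-Oa and H2-Ob, inhibits H2-DM. Ciita encodes a transactivator that switches on MHC class II genes, such as the classical chains, by docking on the RFX, NF-Y and CREB proteins at a shared promoter module. B cells, dendritic cells and macrophages of the mouse make these genes constitutively or on activation, and mouse T cells are known to make little or no MHC class II. C57BL/6 mice lack the alpha chain of I-E, so that the H2-Eb1 product has no partner at the cell surface, although the gene is transcribed.

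On chromosome 17 of the GRCm38 build stand H2-Oa, H2-DMa, H2-DMb2, H2-DMb1, H2-Ob, H2-Ab1, H2-Aa and H2-Eb1, from 34092340 to 34316674, and Ciita stands on chromosome 16 from 10480059 to 10528418. RefSeq promoter sequences (GRCm38.p6, 250 bases before to 50 after the annotated start) were at hand for 7 of the 10 members. The stretch from 125 to 26 bases before the start is shown for H2-Ob, whose transcript departed from the members' mean in Tregs, beside 3 members that followed it. Capitals mark the letters CNNATGATG, the core of the X box that RFX and CREB bind, GATTGG on either strand, the Y box that NF-Y binds, and TGACGTCA, the CREB site.
H2-Eb1 (chr17:34305742-34305841, plus strand): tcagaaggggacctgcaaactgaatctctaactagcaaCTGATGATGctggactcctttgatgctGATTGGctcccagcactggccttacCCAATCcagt
H2-Aa (chr17:34287849-34287948, minus strand): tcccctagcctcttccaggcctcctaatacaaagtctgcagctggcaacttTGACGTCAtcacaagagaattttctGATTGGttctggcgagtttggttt
H2-DMb2 (chr17:34145124-34145223, plus strand): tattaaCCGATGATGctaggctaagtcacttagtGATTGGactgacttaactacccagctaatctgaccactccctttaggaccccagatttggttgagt
H2-Ob (chr17:34238780-34238879, plus strand): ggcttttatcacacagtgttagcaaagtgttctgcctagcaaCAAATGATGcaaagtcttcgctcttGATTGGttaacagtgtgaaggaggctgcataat
Searched on both strands over the whole 300-base window, the X core was found in 4 of the 7 members, H2-DMb1, H2-DMb2, H2-Ob and H2-Eb1, and the Y box in all 7. Of 32851 mouse promoters in the same table, 2.75% held the X core, 16.1% the Y box, 0.341% both and 1.79% the CREB site. The H2-Ob promoter carries both letters, as those of H2-Eb1 and H2-DMb2 do. The letters were chosen after the sequences had been read, and a match is a description, not a binding site.

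Total expected counts per library ranged from 18.28 M to 51.24 M in Tregs and from 31.31 M to 51.95 M in Tcons. The lowest value of any member in any library was 2.16 CPM (counts scaled to the total of the library), of Ciita, and all 10 members passed the filter on low counts. Foxp3, which defines Tregs, was at 182.9 to 311.4 FPKM (fragments scaled to transcript length and library size) in Tregs and at 12.8 to 49.2 FPKM in Tcons, higher in every Treg library than in any Tcon library. Markers of other cells were in both: the summed CPM of 16 B cell markers ranged from 92.6 to 1175 in Tregs and from 318.9 to 1733 in Tcons, and none of the 16 had a mean of 0. For 8 dendritic cell markers the ranges were 6.1 to 101 and 39.0 to 250.1 CPM, and for 13 monocyte and macrophage markers 31.5 to 1041 and 62.8 to 708 CPM. A pair of Treg libraries stood apart before any comparison, isotype PBS replicate 1 and MHC II block WT IL-2 replicate 1, with B cell marker sums of 1175 and 1122 CPM where no other Treg library passed 329.7 CPM. Values without both libraries are given beside the results that they moved most. In such bulk samples a change in a transcript's share can come from more cells of a type or from more RNA per cell, and these cannot be told apart.

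Per unit of length the invariant chain was the most abundant member in both populations, with a median of 201.2 FPKM over 32 Treg libraries and 627.4 FPKM over 16 Tcon libraries. The I-A chains and H2-Eb1 followed at 58.1 FPKM (H2-Aa), 51.0 FPKM (H2-Ab1) and 49.6 FPKM (H2-Eb1) in Tregs, with ranges that overlap almost wholly. H2-Ob came next in Tregs at a median of 33.8 FPKM. It was followed by H2-DMa at 20.2 FPKM, H2-Oa at 11.8 FPKM, H2-DMb2 at 5.50 FPKM, H2-DMb1 at 4.44 FPKM and Ciita at 1.38 FPKM. In Tcons the medians were 243.5, 241.4 and 211.8 FPKM for H2-Aa, H2-Ab1 and H2-Eb1, then 36.4 FPKM for H2-DMa, 30.2 FPKM for H2-DMb2 and 26.8 FPKM for H2-Ob, whose ranges also overlap. For scale, H2-K1, a class I heavy chain that all T cells make, had a median of 2622 FPKM in Tregs and 2090 FPKM in Tcons. The members differed widely in how far they varied between libraries. From the lowest to the highest Treg library H2-Ab1 spanned 22.4-fold in CPM and H2-Aa 16.9-fold, while H2-DMa spanned 2.83-fold, and by FPKM H2-Ob spanned 2.2-fold. H2-DMb1 and H2-DMb2 are near copies, with 94.4% identity over 1255 aligned transcript bases, and their expected counts were whole numbers in 0% of libraries (within 0.01), so how the reads were divided between them is uncertain.

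**Figure D1:**
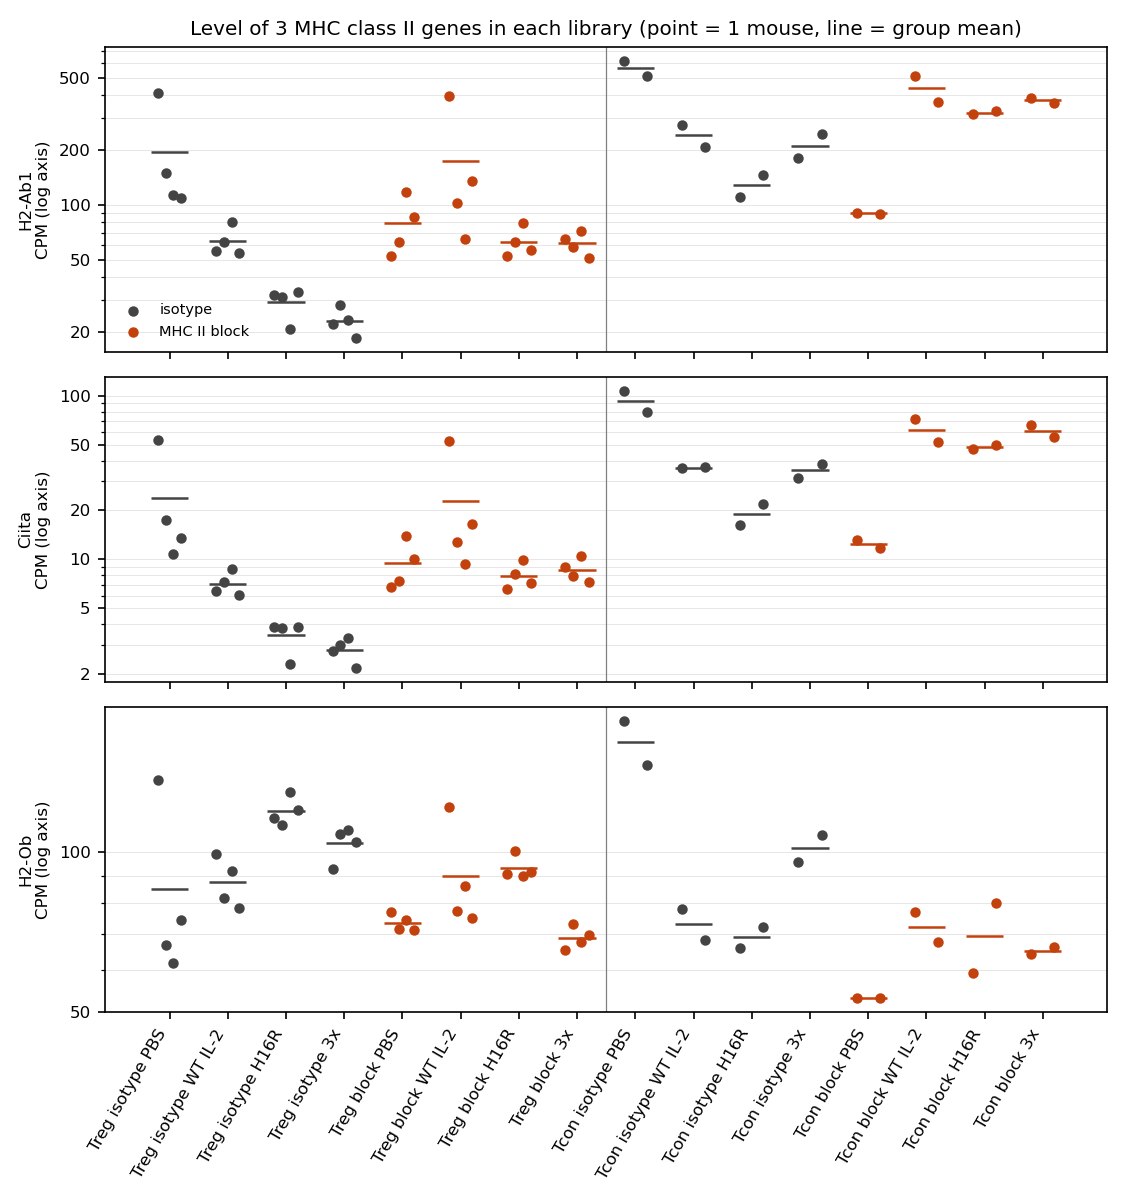
CPM (log axis) of H2-Ab1, Ciita and H2-Ob in each of the 48 libraries, grouped by cell type, antibody and treatment; each point is a mouse and each line a group mean. In isotype Tregs H2-Ab1 and Ciita step down from PBS to 3x while H2-Ob does not, and the MHC II block Treg groups given H16R or 3x lie above their isotype counterparts for H2-Ab1 and below them for H2-Ob.

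The first comparison asked how each IL-2 molecule changed the class II transcripts of the Treg fraction when antigen presentation was left intact. Transcripts of the I-A chains fell with all 3 molecules, and furthest with the muteins. H2-Ab1, the I-A beta chain, was at 414.2, 149.3, 113.1 and 109.1 CPM in the 4 isotype PBS mice and at 55.5, 62.3, 80.5 and 54.4 CPM with WT IL-2. It was at 32.1, 31.0, 20.7 and 33.3 CPM with H16R and at 22.0, 28.1, 23.2 and 18.5 CPM with 3x. No IL-2 library reached the lowest PBS library. The log2 fold changes of H2-Ab1 against PBS were -1.61 ± 0.40 (SE) for WT IL-2, -2.70 ± 0.42 for H16R and -3.06 ± 0.43 for 3x, all past the threshold (edgeR quasi-likelihood test, Benjamini-Hochberg adjusted p = 0.0018, 4.1e-06 and 8.4e-07, n = 4 mice a group). With WT IL-2, 8 of 10 members were lower and 0 higher at an adjusted p under 0.1, where 52.2% of the 12392 genes tested were called in either direction, and the members' median log2 fold change was -1.39 against -0.01 over all genes. With H16R, 9 were lower and 1 higher, with a median of -2.42, where 64.2% of genes were called. With 3x, 9 were lower and 1 higher, with a median of -2.73, where 63.6% of genes were called.

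The isotype PBS group is the reference of all 3 comparisons, and 1 of its 4 libraries is isotype PBS replicate 1. Without that library and MHC II block WT IL-2 replicate 1, members called lower numbered 8 (WT IL-2), 8 (H16R) and 9 (3x), and the falls were smaller. In that fit 53.0%, 64.3% and 62.8% of genes were called in either direction. The log2 fold changes of H2-Ab1 were then -0.94, -2.02 and -2.38, and those of H2-DMb2 -0.69, -1.63 and -1.81 in place of -1.77, -2.71 and -2.90. Markers of other cells moved the same way: all 15 B cell markers tested were lower under WT IL-2 and under H16R, and 14 under 3x, with median log2 fold changes of -1.83, -2.82 and -3.62. Their sum was 267.5 to 1175 CPM in the PBS mice and 134.7 to 202.9, 98.1 to 117.5 and 92.6 to 113.6 CPM with WT IL-2, H16R and 3x. Of 8 dendritic cell markers 7, 8 and 8 were lower, and of 9 monocyte and macrophage markers 5, 9 and 9. With both libraries left out the B cell medians were -1.09, -2.38 and -2.61, and 2, 6 and 6 monocyte and macrophage markers were lower and 1 higher with WT IL-2. Their part in the fall of the class II genes was not tested. All 5 T cell markers were higher with each molecule, with medians of 0.55, 0.56 and 0.36.

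Outside the classical chains, Cd74, Ciita, H2-DMb1 and H2-DMb2 fell with 3x by amounts like those chains, H2-DMa and H2-Oa fell less, and H2-Ob rose. The invariant chain Cd74 was at 404.1 to 1193 CPM in isotype PBS mice and at 81.4 to 107.8 CPM with 3x, a log2 fold change of -2.67 ± 0.34 (adjusted p = 2.2e-07 by edgeR). Ciita, the transactivator, was at 53.4, 17.4, 10.8 and 13.5 CPM with PBS and at 2.74, 2.99, 3.31 and 2.16 CPM with 3x, a log2 fold change of -3.05 ± 0.46 (adjusted p = 2.2e-06 by edgeR). Without the 2 libraries that stood apart these were -2.14 for Cd74 and -2.25 for Ciita. H2-DMb1 was at -2.41 with 3x and at -1.75 without them. The alpha chain of the peptide editor, H2-DMa, changed least of the members that were called lower. It was at 64.8, 37.0, 29.8 and 32.1 CPM with PBS and at 27.1, 23.8, 24.6 and 23.6 CPM with 3x, a log2 fold change of -0.68 ± 0.20, and -0.35 without the 2 libraries. With H16R it was at -0.41, and at -0.08 (adjusted p = 0.467) without them. The H2-DO chains parted from each other. H2-Oa was at 39.6, 23.2, 20.8 and 21.1 CPM with PBS and between 11.4 and 13.4 CPM in all 8 mutein libraries, and its log2 fold change with 3x was -1.04, and -0.76 without the 2 libraries. H2-Ob was at 137, 66.9, 61.9 and 74.3 CPM with PBS, at 116.1, 112.5, 130.1 and 120.3 CPM with H16R and at 92.7, 108.2, 110.2 and 104.5 CPM with 3x. Leaving aside isotype PBS replicate 1, every H16R and 3x library was above every PBS library for H2-Ob. The log2 fold change of H2-Ob was 0.55 ± 0.16 with H16R (adjusted p = 0.0042 by edgeR) and 0.34 ± 0.16 with 3x (adjusted p = 0.073), and 0.07 ± 0.16 with WT IL-2 (adjusted p = 0.74). Without the 2 libraries it was 0.90, 0.68 and 0.42, and the WT IL-2 rise was then called as well (adjusted p = 7.8e-05). The H16R rise kept its call whichever library was left out, from 0.43 to 0.90. The 3x rise lost it when any of 6 libraries was left out, the isotype 3x replicates 2, 3 and 4 or the isotype PBS replicates 2, 3 and 4, and was 0.22 to 0.68. The level of H2-Ob relative to H2-Oa, both per length, had a median of 1.36 in isotype PBS Tregs and of 2.71, 4.15 and 3.66 with WT IL-2, H16R and 3x, and the 4 libraries of each IL-2 group were all above the 4 PBS libraries.

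The antibody comparison asked what the MHC II block changed within each treatment, and its direction in Tregs differed between PBS and IL-2. In PBS mice the members were lower with the block. H2-Aa, the I-A alpha chain, was at 53.4, 65.8, 115.4 and 80.9 CPM in block PBS mice, all below the 117.1 to 415 CPM of isotype PBS mice, a log2 fold change of -1.41 ± 0.37 (adjusted p = 0.015 by edgeR). In all, 8 of 10 members were lower and 0 higher, where 14.1% of genes were called in either direction, and the median was -1.28. H2-DMa (-0.48 ± 0.20, adjusted p = 0.13) and H2-Ob (-0.24 ± 0.16, adjusted p = 0.39) did not pass. This count rests on single libraries. It was 0 without isotype PBS replicate 1, 4 without block PBS replicate 1 and 3 without block PBS replicate 2. Without isotype PBS replicate 1 and block WT IL-2 replicate 1 together it was 5, all lower, where 17.8% of genes were called, and H2-Aa was at -0.81. The B cell markers tested were lower in 9 of 15, and in 1 of 15 without the 2 libraries. Monocyte and macrophage markers were lower in 4 of 9, with a median of -2.28, and in 2 of 9 with a median of -0.32 without them. No dendritic cell marker was called by edgeR (1 of 8 at an unadjusted p under 0.05), and 2 of 5 T cell markers were higher. Their part in the PBS difference was not tested.

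With IL-2 the block groups had more class II transcripts than the isotype groups, not fewer. In WT IL-2 mice H2-Ab1 was at 395.4, 102.2, 65.0 and 135 CPM with the block against 54.4 to 80.5 CPM with isotype, and the groups overlap. Its log2 fold change was 1.46 ± 0.40 (adjusted p = 0.0075 by edgeR), and 7 members were higher and 0 lower, where 33.6% of genes were called. Without block WT IL-2 replicate 1 only 2 members were called. Without that library and isotype PBS replicate 1, 4 were, where 29.4% of genes were called, and H2-Ab1 was at 0.66. In 3x mice the groups separated: H2-Ab1 was at 64.9, 58.8, 71.9 and 51.2 CPM with the block against 18.5 to 28.1 CPM with isotype, a log2 fold change of 1.39 ± 0.41 (adjusted p = 0.0075). Here 6 members were higher and 1 lower, where 54.1% of genes were called, and the block and isotype libraries did not overlap for any of the 10 members, 8 of them higher and 2 lower, where 42.1% of genes did not overlap. In H16R mice H2-Ab1 was at 52, 62.6, 79.5 and 56.5 CPM against 20.7 to 33.3 CPM, a log2 fold change of 1.07 ± 0.41 (adjusted p = 0.059), and 5 members were higher and 1 lower, where 30.7% were called. The H16R count was 3 without isotype H16R replicate 1 or 4, 1 without isotype H16R replicate 3 and 0 without block H16R replicate 3. The 3x count was 7 to 9 whichever library was left out. Without isotype PBS replicate 1 and block WT IL-2 replicate 1 together, 8 members were higher and 1 lower in H16R mice and 8 higher and 2 lower in 3x mice, where 35.8% and 57.5% of genes were called. The log2 fold changes hardly moved, since neither library is in these groups, and the spread that all Treg groups share was estimated without them.

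The H2-DO chains were not higher with the block in mice given the muteins. In 3x mice H2-Oa was at 9.76, 10.1, 10.5 and 10.7 CPM with the block and at 11.4 to 13.1 CPM with isotype, without overlap, and its log2 fold change of -0.30 ± 0.17 did not pass (adjusted p = 0.15 by edgeR), but was called without the 2 libraries that stood apart (adjusted p = 0.00528). In H16R mice it was at -0.08 (adjusted p = 0.79) and the groups overlap. H2-Ob was called. In 3x mice it was at 65.3, 73.2, 67.5 and 69.8 CPM with the block and at 92.7 to 110.2 CPM with isotype, a log2 fold change of -0.63 ± 0.16 (adjusted p = 0.002 by edgeR), and every leave-one-out fit kept the call. In H16R mice H2-Ob was at 91, 100.4, 90.2 and 91.6 CPM with the block and at 112.5 to 130.1 CPM with isotype, also without overlap, and its log2 fold change was -0.39 ± 0.16 (adjusted p = 0.075). That H16R call was lost without any of 6 libraries, the isotype H16R replicates 1, 3 and 4 or the block H16R replicates 1, 3 and 4. Ciita, the member with the largest rise in 3x mice, was at 8.97, 7.95, 10.4 and 7.24 CPM with the block and at 2.16 to 3.31 CPM with isotype, a log2 fold change of 1.58 ± 0.45. Markers of other cells moved with the members. Of 15 B cell markers, 15, 5 and 8 were higher in mice given WT IL-2, H16R and 3x (1 was lower with 3x), and of 8 dendritic cell markers 8, 6 and 7 were. Of 9 monocyte and macrophage markers 9, 2 and 2 were higher, with medians of 5.22, 1.76 and 2.4. Under WT IL-2 all 5 T cell markers and all 4 Treg markers were lower with the block, with medians of -0.30 and -0.31. Without the 2 libraries that stood apart 8, 11 and 13 B cell markers and 4, 7 and 9 monocyte and macrophage markers were higher. Under WT IL-2, 4 T cell and 2 Treg markers were then lower, with medians of -0.24 and -0.23. The dendritic cell sum was 22.9 to 32.6 CPM in block 3x mice and 7.46 to 10.3 CPM in isotype 3x mice. Their part in these differences was not tested.

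**Figure D2:**
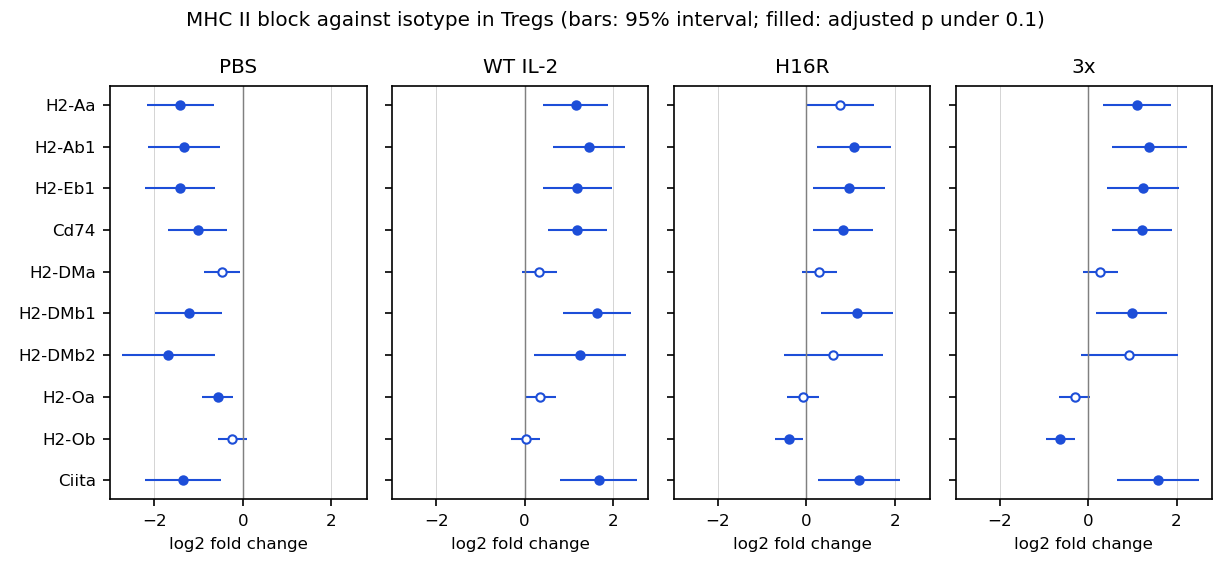
Log2 fold change of each member for MHC II block against isotype in Tregs, by treatment, from the edgeR model of all 32 Treg libraries; bars are 95% intervals and filled points passed an adjusted p of 0.1. Most members lie left of 0 in PBS mice and right of 0 with each IL-2 molecule, whereas H2-Ob lies left of 0 with H16R and 3x.

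The difference between these antibody effects was tested directly. The block effect under WT IL-2 minus that under PBS was above 0 for 9 of 10 members, where 19.7% of genes were called, with a median of 2.59 on the log2 scale. For H16R it was above 0 for 8 members, where 19.1% of genes were called, with a median of 2.24. For 3x it was above 0 for 8 members, where 39.0% of genes were called, with a median of 2.37, and none was below 0. Ciita had the largest of these differences, 3.04 ± 0.60 for WT IL-2 and 2.94 ± 0.62 for 3x (adjusted p = 0.00093 and 0.00085 by edgeR), and H2-Aa was at 2.57 ± 0.52 and 2.51 ± 0.53. Without the 2 libraries that stood apart Ciita was at 1.39 and 2.13 and H2-Aa at 1.25 and 1.91. H2-Ob did not pass in any of the 3, at 0.27 ± 0.23, -0.15 ± 0.23 and -0.40 ± 0.23. Leaving out single libraries gave 8 to 9, 7 to 9 and 8 members. Without isotype PBS replicate 1 and block WT IL-2 replicate 1 together the counts were 7, 9 and 9, where 21.0%, 16.9% and 37.3% of genes were called. H2-Ob was then called below 0 for H16R (-0.50) and 3x (-0.74). All 15 B cell markers were above 0 in the WT IL-2 difference, 13 in that of H16R and 14 in that of 3x. Dendritic cell markers were above 0 for 8, 6 and 7 of 8, and monocyte and macrophage markers for 9, 5 and 8 of 9, with medians of 6.96, 4.14 and 4.01. T cell markers were below 0 for 5, 1 and 2 of 5. With both libraries left out 9, 12 and 14 B cell markers and 4, 6 and 5 monocyte and macrophage markers were above 0. Their part in these differences between antibody effects was not tested.

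Within the block arm, no classical chain was called lower with any IL-2 molecule than with PBS. With WT IL-2, 8 members were higher than in block PBS mice and 0 lower, where 35.6% of genes were called, but all 10 members overlapped between the groups, where 29.2% of genes did not, and the count was 0 without block WT IL-2 replicate 1. That library held 1041 CPM of monocyte and macrophage markers, against 81.0 to 121.4 CPM in the other 3 of its group. Markers of other cells rose as well. Without the 2 libraries that stood apart 4 of 15 B cell, 3 of 7 dendritic cell and 7 of 9 monocyte and macrophage markers were higher and 0 lower. In that fit 34.7% of genes were called. Their part in the WT IL-2 difference was not tested. With H16R, 1 member was higher and 1 lower, where 66.5% of genes were called. These were H2-Ob, at 0.40 ± 0.16 (adjusted p = 0.033 by edgeR), and H2-Oa, at -0.52 ± 0.17 (adjusted p = 0.012). With 3x, H2-Oa alone was called, at -0.78 ± 0.17 (adjusted p = 0.00029), where 73.0% of genes were called. Its levels were 9.76, 10.1, 10.5 and 10.7 CPM with 3x and 16.7, 17.9, 17.3 and 20.2 CPM with PBS, with no overlap. H2-Ab1 was at -0.29 ± 0.40 with H16R (95% interval -1.10 to 0.53) and at -0.33 ± 0.40 with 3x (-1.15 to 0.48), so that a fall as large as that of the isotype arm lies outside both intervals.

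The 3 IL-2 molecules, given at the same 25 µg and read on the same day, were compared with each other in 6 pairs. In isotype Tregs H16R mice had 4 members below the WT IL-2 level and 1, H2-Ob, above it, where 18.6% of genes were called. The 4 were H2-Aa (-1.00 ± 0.37), H2-Ab1 (-1.08 ± 0.41), H2-Eb1 (-1.09 ± 0.39) and Cd74 (-1.00 ± 0.33). With 3x 5 members were lower than with WT IL-2, the same 4 and Ciita (-1.32 ± 0.45, adjusted p = 0.030 by edgeR), where 34.7% of genes were called. Between 3x and H16R 0 members were called by edgeR, 0 by DESeq2 or limma and 0 at an unadjusted p under 0.05, where 11.5% of genes were called, and the difference of H2-Ab1 was -0.36 with a 95% interval of -1.22 to 0.50. The H16R count fell to 0 without isotype H16R replicate 3, to 1 without isotype WT IL-2 replicate 2, to 2 without isotype H16R replicate 1 or isotype WT IL-2 replicate 3a, and to 3 without isotype H16R replicate 2 or isotype WT IL-2 replicate 3b. The 3x count rose to 9 without isotype PBS replicate 1 and to 8 without block WT IL-2 replicate 1. Without both of these libraries the H16R count rose to 8 and the 3x count to 10, where 23.6% and 39.2% of genes were called. In block Tregs 8 members lay below the WT IL-2 level in H16R mice and all 10 in 3x mice, where 57.5% and 68.7% of genes were called. These counts were 5 and 6 without block WT IL-2 replicate 1. Markers of other cells were lower too: in block Tregs all 15 B cell markers, 7 of 8 dendritic cell markers and all 9 monocyte and macrophage markers with either mutein against WT IL-2, with B cell medians of -1.79 (H16R) and -1.66 (3x). These marker counts were smaller with both libraries that stood apart left out. Then 10 and 9 B cell markers were lower, with medians of -0.71 and -0.39, as were 2 and 4 monocyte and macrophage markers. In isotype Tregs 4 B cell, 6 dendritic cell and 1 monocyte and macrophage markers were lower under H16R, and 6, 2 and 1 under 3x, where 1 B cell marker was higher. With both libraries left out the B cell counts there were 13 and 12 lower, and those of monocytes and macrophages 4 and 8. Their part in the differences between molecules was not tested. The H2-Ob difference alone was called between 3x and H16R in block mice, at -0.46 ± 0.16 (adjusted p = 0.044), where 25.2% of genes were, and it lost its call without block 3x replicate 1 or block H16R replicate 2.

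In Tcons the block and isotype groups also differed in opposite directions under PBS and IL-2. With treatment and antibody as additive terms, 1 member, H2-Ob, was lower with the block (-0.57 ± 0.19, adjusted p = 0.053 by edgeR), where 28.9% of 12526 genes were called. It was not called without isotype 3x replicate 2, block 3x replicate 1 or block 3x replicate 2. For each molecule against PBS 0 members were called by edgeR, 0 by DESeq2 or limma and 0 at an unadjusted p under 0.05, where 27.2% (WT IL-2), 31.1% (H16R) and 9.88% (3x) of genes were. Leaving out block PBS replicate 2 or block H16R replicate 2 gave 2 and 1 members lower with H16R. Such a model assumes that the antibody acts alike in every treatment. The libraries of H2-Ab1 went against that. It was at 619.4 and 509.9 CPM in isotype PBS Tcons and at 90.7 and 88.6 CPM in block PBS Tcons. It was at 275.3 and 206.7 CPM with isotype and WT IL-2 and at 513.9 and 369 CPM with block and WT IL-2. With H16R it was at 110.7 and 145.4 CPM against 315.4 and 328.4 CPM, and with 3x at 180.1 and 243.8 CPM against 386.6 and 364.7 CPM. The block libraries were below the isotype libraries in PBS mice and above them with each IL-2 molecule.

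A model of the 8 Tcon groups, chosen after these values had been seen, gave the antibody effect within each treatment from 2 mice a group. In PBS mice all 10 members were lower with the block, where 10.2% of genes were called, with a median log2 fold change of -2.50. Ciita was at -2.89 ± 0.20 (adjusted p = 1.3e-05 by edgeR), H2-Aa at -2.79 ± 0.20 and H2-Ob at -1.59 ± 0.14. With WT IL-2, 7 members were higher and 0 lower, where 10.8% of genes were called. With H16R, 9 were higher, where 4.19% of genes were called, H2-Ob being the exception at 0.01 ± 0.14. With 3x, 6 were higher and 1, H2-Ob, lower (-0.70 ± 0.14, adjusted p = 0.005), where 39.1% of genes were called. Without single libraries the PBS count stayed at 10 and the H16R count at 6 to 9. The WT IL-2 count was 2 without isotype WT IL-2 replicate 2 and 1 without block WT IL-2 replicate 1, and the 3x count was 3 without isotype 3x replicate 1 and 4 without block 3x replicate 1. Isotype WT IL-2 replicate 2 also had the highest sum of Treg markers among Tcons, 1357 CPM against 290.4 to 669.9 CPM in the others.

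**Figure D3:**
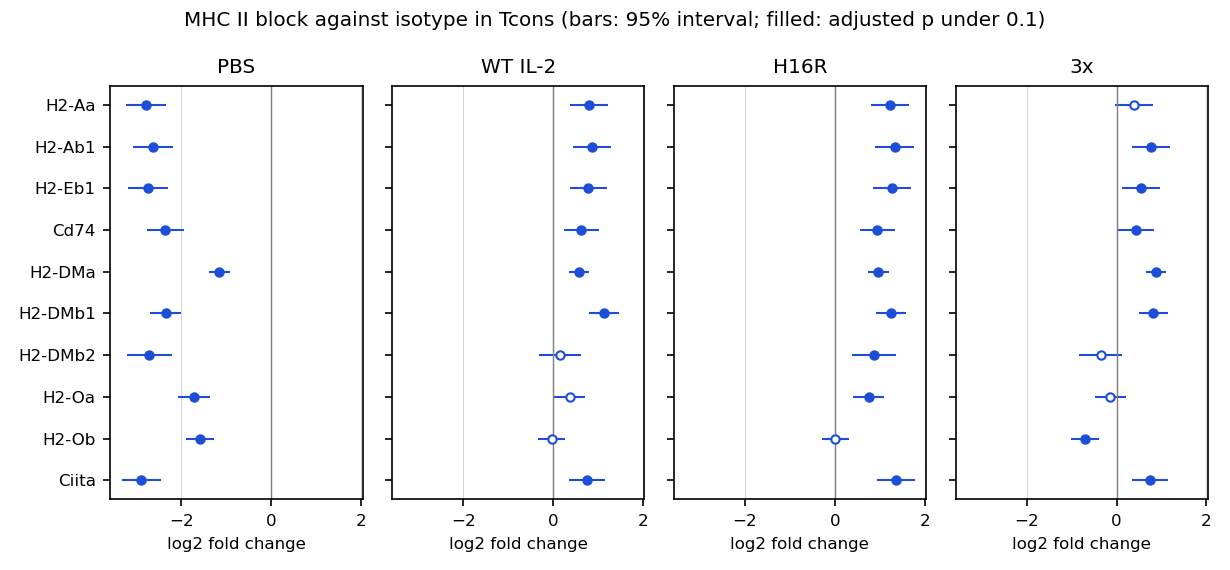
Log2 fold change of each member for MHC II block against isotype in Tcons, by treatment, from the edgeR model of 8 groups of 2 mice; bars are 95% intervals and filled points passed an adjusted p of 0.1. All 10 members lie left of 0 in PBS mice, and with IL-2 most lie right of 0 while H2-Ob is near 0 or left of it.

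In isotype Tcons all 10 members, H2-Ob among them, were lower with every molecule than with PBS. The share of all genes called was 15.0% (WT IL-2), 26.1% (H16R) and 14.5% (3x). H2-Ob was at 176.7 and 145.7 CPM with PBS and at 65.9 to 107.8 CPM in the 6 isotype IL-2 libraries, so in this fraction it fell where in isotype Tregs it rose with H16R and 3x. Markers of other cells fell there as well: 15, 16 and 16 of 16 B cell markers, with medians of -1.79, -2.51 and -1.17, then 5, 6 and 7 of 8 dendritic cell markers and 4, 6 and 6 of 10 monocyte and macrophage markers. Their part in the fall was not tested. In block Tcons 10, 10 and 9 members were higher with WT IL-2, H16R and 3x than with PBS, where 34.8%, 27.0% and 24.4% of genes were called. There 11, 7 and 0 of 16 B cell markers were higher (edgeR, 12, 8 and 0 at an unadjusted p under 0.05), as were 8, 7 and 7 of 8 dendritic cell markers and 10, 5 and 6 of 10 monocyte and macrophage markers. The block effect under IL-2, averaged over the molecules, minus that under PBS was above 0 for all 10 members, where 16.0% of genes were called, with a median of 3.22. It was 3.62 ± 0.23 for H2-Ab1 and 1.35 ± 0.16 for H2-Ob.

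Between block and isotype Tcons the markers of other cells did not all move the same way. In isotype PBS Tcons the 16 B cell markers summed to 1733 and 1518 CPM and in block PBS Tcons to 341.8 and 326.5 CPM, and all 16 were lower with the block. Under WT IL-2 and under H16R 0 of 16 B cell markers were called between block and isotype (edgeR), with 1 and 4 at an unadjusted p under 0.05 and medians of 0.18 and 0.32, and under 3x 14 of 16 were lower. Dendritic cell markers were higher with the block for 7, 5 and 7 of 8, and monocyte and macrophage markers for 10, 4 and 6 of 10. Dendritic cell markers summed to 148.2 to 250.1 CPM in the 6 block IL-2 Tcon libraries, against 39.0 and 41.2 CPM in block PBS and 53.6 to 104.3 CPM in isotype IL-2 Tcons. The level of H2-Ab1 relative to the B cell sum was 0.265 to 0.486 in the isotype and block PBS Tcon libraries together and 0.55 to 1.21 in the 6 block IL-2 libraries, highest with 3x. For H2-Ob the same ratio was 0.113 to 0.201 in the 6 block IL-2 libraries and 0.096 to 0.184 in the others. H2-DMb2 relative to H2-DMb1, per length, was 1.3 to 1.79 in the block IL-2 libraries and 1.70 to 3.06 in the other Tcon libraries.

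**Figure D4:**
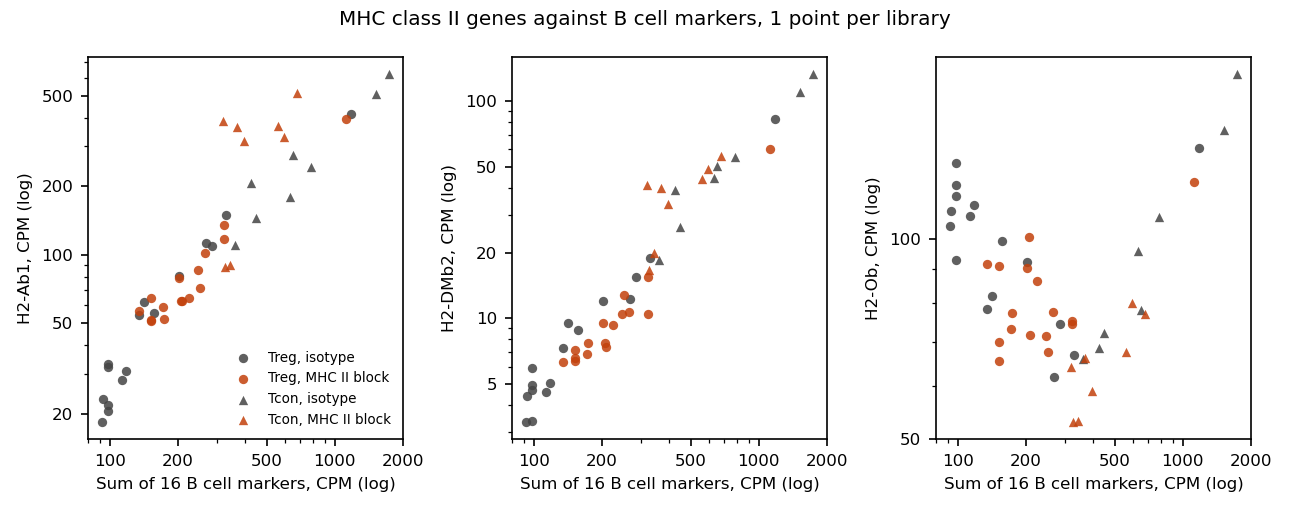
H2-Ab1, H2-DMb2 and H2-Ob against the summed CPM of 16 B cell markers in each library, both axes logarithmic; circles are Tregs and triangles Tcons, dark for isotype and orange for MHC II block. H2-Ab1 and H2-DMb2 rise with the markers over the Treg libraries, and H2-Ob falls and then rises along the axis. In the 6 block IL-2 Tcon libraries the ratio of H2-Ab1 to the markers is above that of every other library.

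Across the 32 Treg libraries 7 members followed the B cell markers closely. Pearson's r of log2 values with the B cell sum was 0.95 to 0.97 for H2-Aa, H2-Ab1, H2-Eb1, Cd74, H2-DMb1, H2-DMb2 and Ciita, and 0.92 to 0.95 without the 2 libraries that stood apart. Libraries of a group share a treatment, so r is a description here. The ratio of H2-Ab1 to the sum ranged from 0.2 to 0.453 over the Treg libraries and differed between groups. It was 0.353 to 0.453 in isotype PBS mice and 0.2 to 0.25 in isotype 3x mice, with no overlap, and 0.285 to 0.428 in block 3x mice. H2-DMa was at 0.80 and H2-Oa at 0.81, and 0.48 and 0.63 without those libraries. H2-Ob was at -0.08, and at -0.74 without them. In the 16 Tcon libraries H2-Ob followed the B cell sum most closely of the members, at 0.96, and H2-Ab1 was at 0.63. Within groups, after each group's mean was removed, r with the B cell sum in Tregs was 0.79 for H2-Ob and 0.93 for H2-Ab1. Both values include the 2 libraries that stood apart, and r within groups was not computed without them. How far those libraries carry it is therefore not known.

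Genes outside the pathway with the pattern most like that of the members, by Pearson's r with the mean of the standardised log2 CPM of the 10 members over 32 Treg libraries, were Gga2, Unc93b1, Lrrk2, Dok3 and Cd79b, at 0.965 to 0.958. Cd79a and Cd22, which encode surface proteins of B cells, and Tlr9 were among the next 5. Over the 16 Tcon libraries they were Wdfy4, Fgd2, Ctsh, Lyn and Lrrk2, at 0.984 to 0.974. H2-Ob itself correlated at 0.02 with the members' mean in Tregs. Taken alone, a choice made after its values were seen, its nearest genes were Pxk and Arap1 in Tregs, at 0.864 and 0.819, and Bank1, Scd1, Spib, Ebf1 and Ms4a1 in Tcons, at 0.97 to 0.954. Of these Bank1, Spib, Ebf1 and Ms4a1 are on the list of B cell markers.

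Tregs were set against Tcons of the same animal in a fit blocked by mouse. Class II transcripts were lower in Tregs for 9 members and higher for 1, where 75.9% of 12844 genes were called, and the counts did not change when any mouse was left out. H2-Aa was lower in the Treg library in 16 of 16 mice, at 0.116 to 0.774 of the Tcon level with a median of 0.281, and its log2 fold change was -1.68 ± 0.20 (adjusted p = 4.4e-07 by edgeR). Ciita, at a median of 0.187 of the Tcon level, had the largest difference, -2.11 ± 0.22, and was lower in 16 of 16 mice. H2-Oa differed less, at -0.34 ± 0.12 (adjusted p = 0.015), and was lower in 13 of 16 mice. H2-Ob was the member that was higher in Tregs, in 13 of 16 mice, at 0.459 to 1.76 of the Tcon level with a median of 1.23 and a log2 fold change of 0.30 ± 0.11 (adjusted p = 0.025). The mice below 1 for H2-Ob were both isotype PBS mice, at 0.775 and 0.459, and isotype 3x replicate 1, at 0.969. In mice given neither IL-2 nor the block H2-Ob was thus lower in Tregs. Whether the Treg minus Tcon difference changed with the antibody was tested in the same mice, and 0 members were called by edgeR, 0 by DESeq2 or limma and 0 at an unadjusted p under 0.05, where 3.99% of genes were called. For H2-Ab1 the change was 0.34 with a 95% interval of -0.53 to 1.2. That test averages over treatments in which the block effect had opposite directions. In it 6 of 16 B cell markers were called above 0 and 14 were at an unadjusted p under 0.05, with a median of 1.3, and 1 of 8 dendritic cell markers was called above 0. In the Treg against Tcon difference itself B cell markers were lower in Tregs in all 16, with a median of -1.69, dendritic cell markers in all 8, and monocyte and macrophage markers in 7 of 13, with a median of -0.35.

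**Figure D5:**
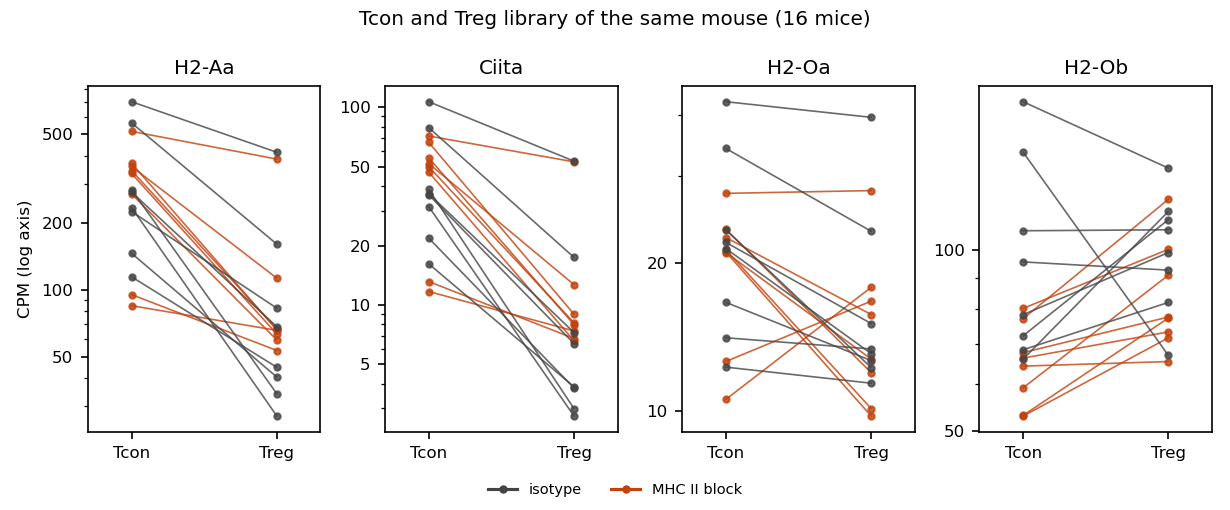
CPM (log axis) of H2-Aa, Ciita, H2-Oa and H2-Ob in the Tcon and Treg library of each of 16 mice, joined by a line; dark lines are isotype and orange lines MHC II block. All lines fall from Tcon to Treg for H2-Aa and Ciita, 13 of 16 fall for H2-Oa, and 13 of 16 rise for H2-Ob.

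The proteins that act with the members were measured as a list of 19 symbols, 16 of them in the matrix and 15 tested in Tregs. With 3x in isotype Tregs 4 were higher and 8 lower, with a median log2 fold change of -0.18, and with H16R 4 were higher and 7 lower, where 63.6% and 64.2% of all genes were called. H2-Eb2 and March1, a ubiquitin ligase that removes MHC class II from the surface, fell like the classical chains, at -2.67 and -2.89 with 3x, and at -1.93 and -2.10 without the 2 libraries that stood apart. Cd83, a stabiliser of surface MHC class II that T cells also make, fell by 1.82 on the log2 scale, and by 1.86 without them. The factors that Ciita docks on were named after their values were seen. Rfx5 was at -0.36, Rfxap at 0.24 and Rfxank at 0.02, Nfya was at -0.18, Nfyb at 0.44 and Nfyc at -0.01, and Creb1 was at 0.05. Of these Rfx5 and Nfya were called lower and Rfxap and Nfyb higher. Lgmn, an endosomal protease that processes antigen and the invariant chain, rose by 1.55, and Ctss, which makes the last cuts in the invariant chain, fell by 0.78. March8, a relative of March1, fell by 0.92. For the block effect under 3x minus that under PBS, H2-Eb2 (2.63) and March1 (2.37) were called above 0, as 8 members were. Both were also called without the 2 libraries, at 1.88 and 1.57. Of the same list Sppl2a (0.27), Nfyb (0.21) and Nfyc (0.14) were also called above 0 and Rfxank (-0.18) below it. The share of all genes called was 39.0%. Cd83 was at -0.23 and did not pass.

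MHC class I genes served as a counterpart that T cells express themselves. Of 13, 8 were higher and 0 lower for WT IL-2 as for H16R in isotype Tregs, and 5 were higher and 1 lower for 3x, with medians of 0.19, 0.21 and 0.08. The share of all genes called was 52.2%, 64.2% and 63.6%, so these counts are near or below it. Without the 2 libraries that stood apart 9 and 10 were higher for WT IL-2 and H16R, and the 3x counts were as before. Between block and isotype in PBS Tregs no class I gene was called by edgeR, none at an unadjusted p under 0.05, where 14.1% of genes were called, and their median was 0.04. With the block 4 were lower in WT IL-2 mice, 5 higher and 2 lower in H16R mice and 6 higher and 4 lower in 3x mice, where 33.6%, 30.7% and 54.1% of genes were called, with medians of -0.07, 0.03 and 0.06. B2m, the class I light chain, rose by 0.23 with 3x and by 0.39 with H16R, and Psmb9, an immunoproteasome subunit, by 0.22 and 0.44. Nlrc5, the class I transactivator and a relative of Ciita, was at -0.07 and 0.04 and did not pass. On the T cell side, Cd4, the coreceptor for MHC class II, rose by 0.31 with 3x and by 0.51 with H16R. Lag3, an inhibitory receptor that binds MHC class II, rose by 0.52 with 3x and by 1.57 with H16R, and its block effect under 3x minus that under PBS was 1.28, called above 0. These values were 0.68, 1.73 and 1.12 without the 2 libraries, all called. Cd80, a ligand of Cd28 and Ctla4, rose by 1.63 with 3x and by 1.52 with H16R, and Cd86, its partner ligand, fell by 0.58 and 0.57. Ctla4 rose by 0.28 and by 0.39.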

How the data were processed

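The authors aligned reads with OSA (Omicsoft) to the mouse B38 genome and deposited expected counts from the Omicsoft version of RSEM, not normalized. The authors also deposited FPKM values. Tables of their own DESeq2 v1.30.1 fold changes, adjusted p-values and Wald statistics were deposited too and were not used. Samples were grouped by their labels, and 0 columns belonged to other samples. Replicates 3a and 3b of isotype WT IL-2 Tregs carry the same mouse number in the labels and were taken as 2 mice.

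Expected counts were rounded and fitted in R 4.3.3 with edgeR 4.0.16 (TMM, quasi-likelihood test) over protein-coding genes (GENCODE vM21) above 0.5 CPM in at least 4 libraries with no empty cell. Calls used a Benjamini-Hochberg adjusted p under 0.1 over all genes tested. Tregs were fitted as 8 groups, and Tregs and Tcons of the same mouse with the mouse as a block. Libraries of 1 mouse deviated together (median r 0.2 over 16 mice, lowest 0.1). CPM is the expected count scaled to the total of its library, and standard errors come from the F statistic. Alternatives were DESeq2 1.42.0, limma 3.58.1 on log2(FPKM + 1), total-count scaling, no low-count filter, empty cells as 0, a block on the label number and leaving out each library. The code was tested on simulated counts. Members and gene lists were chosen with earlier results of these data known. Named genes are the members, called genes of the pathway, class I and T cell lists (at most the 6 largest changes a list and comparison) and the 10 genes nearest in pattern, and the docking factors, Nlrc5 and H2-K1 were added after their values were seen.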

Additional observations from a re-analysis of the deposited data

Results flagged for a closer look

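Among the 80 combinations of member and Treg group, a member's highest or lowest library lay apart from the other 3 in 17, by a gap past the 95% critical value of Dixon's test, which chance alone passes in about 1 in 20 groups. In isotype PBS Tregs this was replicate 1 for 8 members, at 415 CPM for H2-Aa, 414.2 for H2-Ab1, 374.9 for H2-Eb1, 1193 for Cd74, 82.5 for H2-DMb2, 39.6 for H2-Oa, 137 for H2-Ob and 53.4 for Ciita. In MHC II block WT IL-2 Tregs it was replicate 1 for 4 members, at 354.1 CPM for H2-Eb1, 60.3 for H2-DMb2, 28.1 for H2-Oa and 53 for Ciita. Isotype H16R replicate 3 was lowest of its group for H2-Eb1 (22.1 CPM) and Ciita (2.28 CPM). The others were block 3x replicate 4, lowest for H2-DMb1 (4.64 CPM), block 3x replicate 3, highest for H2-DMb2 (12.9 CPM), and block H16R replicate 2, highest for H2-Ob (100.4 CPM).

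The effect of the MHC II block differed between IL-2 and PBS mice by a test of the difference itself, for 9 members under WT IL-2, 8 under H16R and 8 under 3x in Tregs, and for 10 members in Tcons with the molecules averaged. The share of all genes called was 19.7%, 19.1%, 39.0% and 16.0%. Without the 2 Treg libraries that stood apart, the calls of H2-DMa and H2-DMb2 under WT IL-2 were lost. H2-Ob was then called below 0 under H16R (-0.50) and 3x (-0.74). The Tcon test came from the model chosen after the values were seen.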

How the results depend on the processing

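Each count of called members was recomputed under the alternatives that apply to it. The fit without the 2 libraries that stood apart was run for the 19 comparisons within Tregs alone. DESeq2, limma on log2(FPKM + 1), total-count scaling, no filter on low counts and empty cells read as 0 left all 36 counts within 1.5 times of those reported, as did the block on the label number in the 23 comparisons it applies to and the fit with no replicate block in the 2 paired ones. With the replicate block 2 of 122 single-member calls were lost, both of H2-DMb2 with WT IL-2 in the block arm. Label numbers did not pair Treg libraries of different groups (median r 0.02 over 112 pairs). Without isotype PBS replicate 1 and block WT IL-2 replicate 1 together, tried only after the data had been seen, the block against isotype counts were 5 (PBS) and 4 (WT IL-2), those against PBS in block Tregs 3 (WT IL-2) and 2 (3x), those against WT IL-2 in isotype Tregs 8 (H16R) and 10 (3x), and those of 3x against H16R 2 (isotype) and 3 (block). Of all genes 17.8% and 29.4%, 34.7% and 75.5%, 23.6% and 39.2%, and 14.9% and 28.6% were called, in the same order. In this setting H2-DMa for H16R against WT IL-2 in block Tregs turned to 0.23. Leaving out each library gave ranges of 0 to 9 (block against isotype, PBS), 2 to 9 (WT IL-2) and 0 to 7 (H16R) in Tregs. For block Tregs against PBS the range was 0 to 9 with WT IL-2. Against WT IL-2 it was 0 to 7 (H16R) and 5 to 9 (3x) in isotype Tregs, and 5 to 8 and 6 to 10 in block Tregs, and 3x against H16R gave 0 to 1 in block Tregs. In Tcons it was 0 to 1 for the block and 0 to 2 for H16R in the additive model, and 1 to 8 (WT IL-2) and 3 to 8 (3x) for the block within treatments. With 1 Tcon library left in a group, it was assumed to vary like the others. The Tcon groups hold 2 mice each, which limits every Tcon estimate, and depth was lowest in isotype PBS Tregs.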
